A study of Homo sapiens with 8 samples.

Results

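The comparison described here is that of 2 tagged Caco-2/15 lines while their cultures were still growing: subconfluent Z2flag against subconfluent Z1flag cells. It rests on 4 of the 8 RNA-seq libraries of the series, 2 per line, chosen by the labelled growth state and genotype. Caco-2/15 is a line of human colon cancer cells that turns towards an enterocyte-like state once confluent. Z1flag cells are heterozygous H2AFZ-Flag, with a Flag epitope introduced by CRISPR-Cas9 at the 3' end of H2AFZ (now H2AZ1), and Z2flag cells are heterozygous H2AFV-Flag, tagged in the same way at H2AFV (now H2AZ2). Both groups therefore carry 1 edited H2A.Z gene, and no unedited Caco-2/15 cells were analysed here, so a difference between the lines has no untagged reference. The 2 libraries of a line in each growth state are labelled Exp1 and Exp2, here called replicates 1 and 2. Whether an experiment number marks a batch shared by both lines is not stated. The sources used here do not give whether each line is 1 clone or a pool. Beyond the experiment labels, they do not give whether the 2 libraries of a line come from separate cultures. The other 4 libraries are of the same lines 7 days after confluence and serve to estimate the spread and as a second look at the lines. The series asks what the H2A.Z isoforms do during differentiation, and the subconfluent cells are its starting state.

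H2A.Z is a variant of histone H2A that is deposited outside replication, mostly in nucleosomes that flank promoters, by chromatin remodellers of the SRCAP and TIP60 type. Vertebrates have separate genes for H2A.Z.1 and H2A.Z.2, whose proteins differ at a few residues. Growing Caco-2 cells express cell cycle genes, keratins of simple epithelium and part of a fetal-type program with genes otherwise typical of liver, and brush border genes rise after confluence.

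Depth was 22318004 and 25863137 gene counts in the Z1flag and 40881682 and 35645383 in the Z2flag libraries, so both Z2flag libraries were deeper. Z1flag replicate 1 stood apart from the other 3. Over the 13847 genes with a mean of at least 1 CPM (gene counts scaled to library size), 59 were at least 2-fold higher and 170 at least 2-fold lower in it than in each other subconfluent library, against 0 to 8 for each of the others. Reads that overlapped no annotated feature were 32.0% of those its file lists, against 23.5% to 24.5% in the others. Its deviation from the mean of the 4 libraries moved with gene length, with a median of -0.15 on the log2 scale for the 2922 shortest protein-coding genes and 0.06 for the 2918 longest. The 21 nuclear pseudogenes of mitochondrial genes had a median deviation of 0.53 in it and -0.22 to -0.14 in the others. What sets this library apart was not tested, and values without it are given where they differ most. All 37 mitochondrial gene IDs were at 0 in every library.

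The closest pair of subconfluent libraries was not a pair of replicates. Z1flag replicate 2 and Z2flag replicate 2 differed by a median of 0.079 on the log2 CPM scale, with 13 genes at least 2-fold apart. The replicates of Z2flag differed by 0.12 (37 genes) and those of Z1flag by 0.20 (375 genes). The other pairs between lines differed by 0.14 to 0.27. Any subconfluent and any postconfluent library differed by 0.58 to 0.69. The closest pair, labelled as samples of different lines, had a median chi-square of 1.12 over genes where counting alone gives 0.455.

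**Figure D1:**
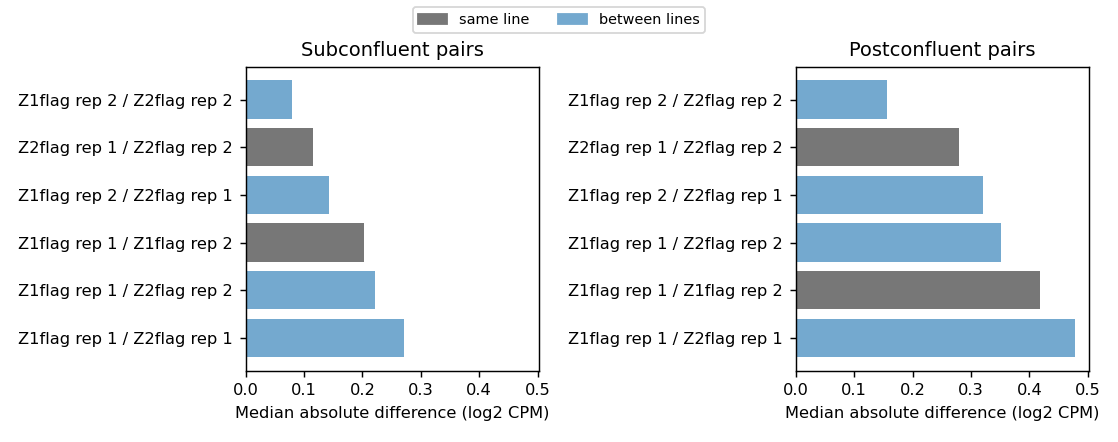
Median absolute difference in log2 CPM over 13847 genes for each pair of libraries of 1 growth state, with pairs within a line in grey and pairs between lines in blue. In both states the shortest bar is a pair between lines, Z1flag replicate 2 with Z2flag replicate 2 (0.079 subconfluent and 0.16 postconfluent).

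Neither tagged gene differed detectably between the lines. H2AZ1, on the minus strand of GRCh38 at chr4:99948086-99950388, stood at 292 and 341 CPM in Z1flag and 352 and 347 CPM in Z2flag cells. All 4 values are close, with Z1flag replicate 1 the lowest, and the fitted log2 fold change of Z2flag over Z1flag was 0.14 (SE 0.26, 95% interval -0.44 to 0.73), edgeR adjusted p = 1. H2AZ2, on the minus strand at chr7:44826791-44848083, stood at 84.8 and 97.1 CPM in Z1flag and 93.1 and 93.1 CPM in Z2flag cells, with overlapping groups and a log2 fold change of 0.03 (SE 0.19, 95% interval -0.40 to 0.47), adjusted p = 1. Without Z1flag replicate 1 the differences were 0.04 and -0.05. Counts per gene do not separate tagged from untagged alleles, so these values do not check the labels. The intervals lie within a 2-fold change either way for both genes. Of 32 genes listed as H2A.Z genes with their chaperones, remodellers and readers, all were tested and 30 had an interval of that kind. So did 57.9% of all genes, 92.8% of those from 20 to 100 CPM and 93.0% of those at 100 CPM or more. The median log2 difference of the 32 was 0.07 (-0.04 with the no-feature share as a covariate). H2AX, the variant phosphorylated at DNA breaks, was at 265 and 263 against 255 and 274 CPM. MORF4L1, a subunit of the TIP60 complex, was at 306 and 312 against 306 and 304 CPM, Z1flag first.

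Per kb of exon, the shared program of the growing cells was led by replication-dependent histone genes. The length is that of all annotated exons of a gene merged, 6881 bases for KRT8 and 411 for H3C7, so the ranking depends on the annotation. By CPM the order was another. KRT8 had a mean of 6754 and FN1 of 6484 CPM, against 304 to 831 CPM for the 9 histone genes named below. The 15 protein-coding genes with the highest level lay between 741 and 1627 CPM per kb. Of these, 9 were replication-dependent histone genes, which package newly made DNA: H2BC12, HIST1H3B, H1-5, H1-2, H2AC12, H1-4, H4C2, H4C3 and H3C7. FTL, the light chain of the iron store ferritin, was the highest, at 1185 and 1664 CPM per kb in Z1flag and 1765 and 1892 CPM per kb in Z2flag cells. KRT18, which pairs with KRT8 in the filaments of simple epithelium, was at 1414 and 1272 CPM per kb in Z1flag and 1071 and 1379 CPM per kb in Z2flag cells, and its groups overlapped. The others were KRT8, the glycolytic enzyme GAPDH, ACTB (cytoplasmic actin) and the glucose transporter SLC2A3. Differences between lines in these 15 genes ran from -0.30 for ACTB to 0.36 for FTL on the log2 scale, none passed, and for 7 the 95% interval lay within 2-fold. All 9 histone genes were highest in Z1flag replicate 1.

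**Figure D2:**
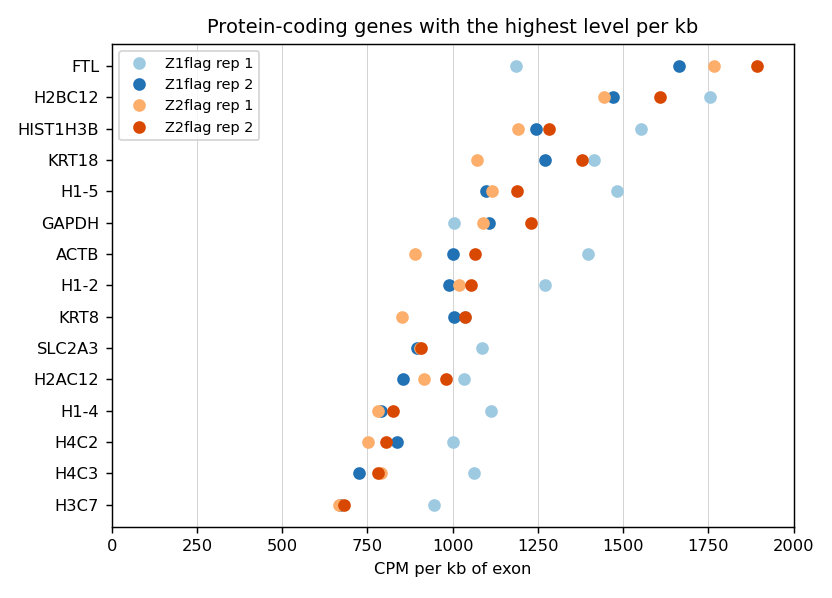
Level in CPM per kb of exon of the 15 protein-coding genes with the highest mean in subconfluent cells, 1 point per library. The points of the lines overlap for most genes, and for the histone genes Z1flag replicate 1 lies to the right of the other 3.

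Genes of proliferation had small median differences between the lines, which were larger and negative with the no-feature share of the libraries as a covariate. Of 50 genes of DNA replication, all tested, none passed, 26 had both Z2flag libraries higher and 6 both lower, against 26.3% and 17.2% of all genes. Their median log2 difference was 0.10, 0.05 without Z1flag replicate 1 and -0.21 with the covariate, and 45 had an interval within 2-fold. PCNA, the sliding clamp of the polymerases, was at 226 and 239 against 243 and 248 CPM, MCM6, a subunit of the replicative helicase, at 333 and 325 against 336 and 328 CPM, and TK1, thymidine kinase, at 132 and 141 against 136 and 146 CPM, Z1flag first. All 42 genes of mitosis were tested, 6 with both Z2flag libraries higher and 7 with both lower, with 40 intervals within 2-fold. Their median was -0.05, 0.03 without Z2flag replicate 1 and -0.31 with the covariate. No gene of the replication and mitosis lists had a mean below 22.9 CPM. Of all genes, 92.8% from 20 to 100 CPM and 93.0% at 100 CPM or more had an interval within 2-fold. TOP2A, which untangles chromosomes, was at 863 and 883 against 747 and 894 CPM and CCNB1, the mitotic cyclin, at 359 and 378 against 367 and 390.0 CPM. The spindle gene ASPM was at 439 and 383 against 279.7 and 395 CPM, lowest in Z2flag replicate 1. For stem cell genes and Wnt targets (25 of 28 listed were tested) the median was 0.02, -0.02 with RLE scaling and -0.08 with the covariate. Among them CCND1, a G1 cyclin, was at 377 and 296 against 325 and 302 CPM, MYC at 146 and 81.1 against 107 and 83.3 CPM, PROM1 at 411 and 394 against 399 and 369.5 CPM and EPHB2 at 109.9 and 158 against 189 and 182 CPM. ASCL2, a transcription factor of intestinal stem cells, was at 22.5 and 42.0 against 45.1 and 49.3 CPM, with Z1flag replicate 1 the lowest.

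The labelled cell type, intestinal epithelium, matched the markers in both lines. EPCAM, the epithelial adhesion molecule, was at 439 and 565 against 555 and 565 CPM, and VIL1, villin of the microvillus, at 501 and 587 against 543 and 632 CPM. CDX2, which sets intestinal identity, was at 34.0 and 48.9 against 66.3 and 54.3 CPM and HNF4A at 427 and 434 against 529 and 460.4 CPM. Markers of other cell types were in part absent and in part expressed. Of 11 neural genes, 8 had no count in any subconfluent library, while SYP, a synaptic vesicle protein also of endocrine cells, was at 6.08 and 17.0 against 18.5 and 20.6 CPM. Of 18 enteroendocrine genes, 6 had no count (CHGA, GCG, SST, NEUROD1, NEUROG3 and PCSK1) and 6 were tested, among them SCGN at 0.811 and 1.98 against 3.09 and 2.53 CPM and PCSK1N at 1.35 and 2.71 against 3.09 and 2.05 CPM. Of 13 leukocyte and endothelial genes, 2 had no count (ITGAX and KDR), PTPRC did not pass the count filter, and 7 were tested. CD14 was at 5.18 and 12.4 against 8.96 and 11.1 CPM, LYZ, lysozyme, at 3.56 and 10.0 against 11.2 and 9.48 CPM and PECAM1 at 4.51 and 4.77 against 11.1 and 4.64 CPM. Of 10 fibroblast genes, COL1A2 and POSTN had no count, while PDGFRA, a growth factor receptor of mesenchyme, was at 61.5 and 103 against 89.1 and 85.3 CPM and LUM, a matrix proteoglycan, at 92.5 and 83.0 against 55.9 and 71.2 CPM. The 5 tested fibroblast genes summed to 182 and 233 against 203 and 203 CPM, and FN1, fibronectin, was at 6938 and 5822 against 7457 and 5719 CPM. Of 16 colonocyte genes, CA4, CEACAM7 and MS4A12 had no count and 11 were tested, with SLC26A2, a sulfate transporter, at 226 and 246 against 293 and 259.7 CPM and CA2, a carbonic anhydrase, at 13.8 and 17.0 against 21.0 and 18.5 CPM. Of 15 goblet cell genes, the secretory factor ATOH1 had no count and 9 were tested.

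Across all genes, no difference between the lines passed the test. Of 18240 genes, edgeR called 0 (0.0%) at an adjusted p below 0.05, and 195 (1.07%) had an unadjusted p below 0.05. A calibrated test gives a share of about 0.05 where no gene differs, so the test was cautious for this comparison. The reason for the low share was not tested. DESeq2 and limma voom also called 0, with 152 and 201 genes at an unadjusted p below 0.05. The smallest edgeR p was 8.295e-05, for THBS4, with an adjusted p of 1. Groups did not overlap for 4800 genes with both Z2flag libraries higher (26.3%) and 3138 with both lower (17.2%), and 10302 overlapped. The median difference over all genes was 0.04 on the log2 scale. In an edgeR fit of the 4 subconfluent libraries alone, 0 of 17319 genes passed and 6.02% had an unadjusted p below 0.05.

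How far a difference could be bounded depended on the level. The 95% interval of the fold change lay within 2-fold either way for 10554 genes (57.9%). That share was 93.0% of 2497 genes at 100 CPM or more, 92.8% of 5256 from 20 to 100 CPM and 77.4% of 2946 from 5 to 20 CPM. It fell to 32.4% of 3148 genes from 1 to 5 CPM and 1.23% of 4393 below 1 CPM. There, most 2-fold differences were not detectable at this depth, number of libraries and fitted spread. Fitted differences of at least 2-fold occurred in 572 genes (3.14%), 502 of them below 1 CPM. These intervals take each gene alone and are not adjusted for the number of genes. They rest on a spread fitted over all 8 libraries. Replicates differed by a median of 0.42 and 0.28 in postconfluent against 0.20 and 0.12 in subconfluent cells (log2 CPM, Z1flag first). With the 4 subconfluent libraries alone, 73.2% of 17319 genes had an interval within 2-fold.

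**Figure D3:**
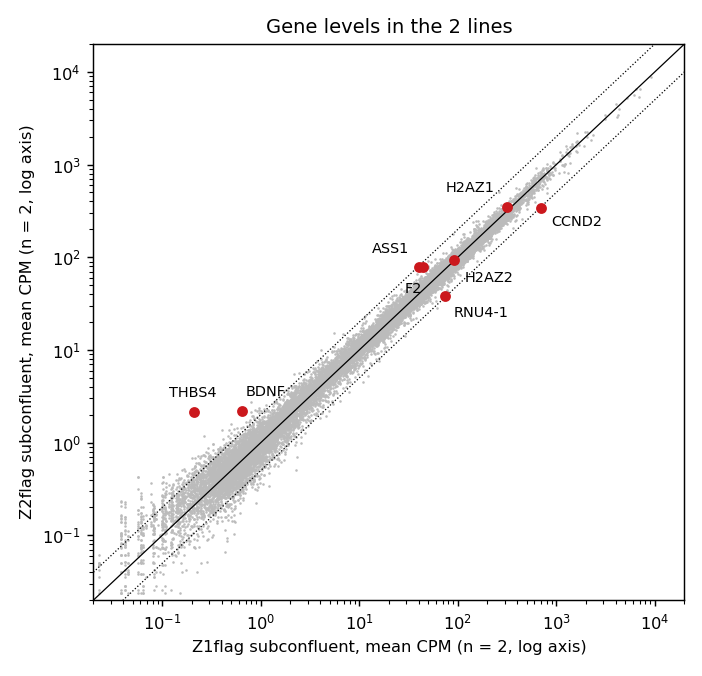
Mean CPM in subconfluent Z1flag (x) and Z2flag cells (y), both on log axes, with n = 2 libraries each. Each grey point is 1 of 18108 genes, another 132 with a mean below 0.02 CPM in a line are not drawn, the solid line marks equality and dotted lines a 2-fold difference. THBS4 lies farthest from the line of the genes marked, and H2AZ1 and H2AZ2 lie near it.

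The gene with the smallest p was THBS4 (thrombospondin 4), a secreted glycoprotein of the extracellular matrix, on the plus strand at chr5:79991311-80083287. It stood at 0.270 and 0.153 CPM in Z1flag and 2.14 and 2.17 CPM in Z2flag cells, and the Z2flag values lie well above both Z1flag values. The counts behind this were few in Z1flag cells, 10 over both libraries, against 167 in Z2flag cells. The ratio at equal depth was 10.4, with an exact binomial interval of 5.52 to 22.1 that covers counting error only. The fitted log2 fold change was 3.34 (SE 0.53, 95% interval 2.16 to 4.52), adjusted p = 1. Without Z1flag replicate 1 it was 3.78, and without the count filter THBS4 passed, with an adjusted p of 0.000598. In postconfluent cells, which share no library with this comparison, THBS4 was at 0.303 and 0.255 CPM in Z1flag and 0.937 and 1.98 CPM in Z2flag cells, again without overlap, with a ratio of 5.09 (2.73 to 10.2). The postconfluent log2 fold change was 2.35 (SE 0.53, adjusted p = 0.638). Over both states together the difference was 2.85 (SE 0.38, adjusted p = 0.319), and 0 genes passed there, with 465 at an unadjusted p below 0.05. It also led the 13 genes at least 2-fold apart in the closest pair, at 3.29 on the log2 scale.

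By rule, the 12 genes with the smallest p in each direction were described, among those with a mean of at least 1 CPM and no overlap between lines. None passed, and since they were picked by p their differences are a description. After THBS4, the higher genes were BDNF, NDRG2, ASS1, PRSS3, F2, ST6GALNAC6, CREB3L3, DSC3, NPC1L1, ERICH4 and CIDEB. BDNF, a secreted neurotrophin, was at 0.721 and 0.572 CPM in Z1flag and 2.85 and 1.55 CPM in Z2flag cells, a log2 fold change of 1.77 (SE 0.46). In CPM the Z2flag libraries of BDNF were farther from each other than the lower of them was from Z1flag cells. The reverse held on the log2 scale. In postconfluent cells BDNF was at 0.22 CPM or less in all 4 libraries. ASS1, which makes argininosuccinate in the urea cycle, was at 33.3 and 54.7 CPM in Z1flag and 80.6 and 75.1 CPM in Z2flag cells, with a difference of 0.82 (SE 0.24), 0.52 without Z1flag replicate 1 and 1.25 without Z1flag replicate 2. DSC3, a desmosomal cadherin, was at 4.91 and 8.74 CPM in Z1flag and 12.8 and 17.1 CPM in Z2flag cells, a difference of 1.13 (SE 0.39), and in postconfluent cells at 1.63 and 3.11 CPM in Z1flag and 9.04 and 6.01 CPM in Z2flag cells. NPC1L1, the cholesterol uptake protein of the enterocyte, was at 6.44 and 8.05 against 13.6 and 9.71 CPM, Z1flag first. CREB3L3, a membrane-bound transcription factor of liver and intestine, was at 0.721 and 1.18 against 3.09 and 1.60 CPM. CIDEB, a lipid droplet protein, was at 4.10 and 6.91 against 10.7 and 8.75 CPM. For all 3 of these genes of lipid handling and its control, Z2flag replicate 1 was the highest and Z1flag replicate 1 the lowest. NDRG2 was at 0.946 and 1.30 against 2.97 and 2.14 CPM, PRSS3, a trypsinogen, at 3.06 and 4.58 against 6.94 and 6.25 CPM, and the sialyltransferase ST6GALNAC6 at 8.74 and 12.1 against 19.6 and 15.3 CPM. ERICH4 was at 0.631 and 1.11 against 2.97 and 1.55 CPM. By the rule of no overlap a Z1flag library is the lowest for each gene, and it was replicate 1 for 10 of the 12. Without that library the median difference of the 12 went from 1.03 to 0.66. The rule all but fixes the sign there, so the sign is no check. All 4 postconfluent libraries lay above all 4 subconfluent ones for 9 of the 12, against 25.1% of all genes tested. The sign in postconfluent cells was the same for 7 of the 12, against 46.0% of all genes.

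Small structural RNA genes and pseudogenes made up much of the lower set. RNU4-1 and RNU4-2 encode the U4 small nuclear RNA of the spliceosome, which pairs with U6 before splicing starts. The transcripts, as annotated in GENCODE v29 on the minus strand of GRCh38 (chr12:120293097-120293237 and chr12:120291763-120291903), are shown because their likeness limits how the counts can be read, and capitals mark the bases that differ.
RNU4-1: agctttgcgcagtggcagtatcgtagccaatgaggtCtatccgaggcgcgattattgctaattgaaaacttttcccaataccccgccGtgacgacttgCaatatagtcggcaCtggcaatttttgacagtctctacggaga
RNU4-2: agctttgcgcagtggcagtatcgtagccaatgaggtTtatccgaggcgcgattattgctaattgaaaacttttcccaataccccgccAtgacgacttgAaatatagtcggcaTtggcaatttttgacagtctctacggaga
Counted from the 5' end, RNU4-2 differs from RNU4-1 by C37T, G88A, C99A and C113T in 141 bases, so reads between these bases fit both copies and the split between the genes is uncertain. RNU4-1 was at 87.9 and 59.7 CPM in Z1flag and 39.2 and 38.1 CPM in Z2flag cells, a log2 fold change of -0.93 (SE 0.23, 95% interval -1.44 to -0.43). RNU4-2 was at 89.8 and 66.4 CPM in Z1flag and 43.8 and 43.3 CPM in Z2flag cells, a log2 fold change of -0.84 (SE 0.21). The Z2flag libraries nearly coincided for both genes, Z1flag replicate 2 lay above them and Z1flag replicate 1 was the highest. Without replicate 1 the differences were -0.62 and -0.60. In postconfluent cells the lines did not differ in the same direction, with RNU4-1 at 113 and 109.9 CPM in Z1flag and 111 and 146 CPM in Z2flag cells. RNU6ATAC, of the minor spliceosome, was at 3.56 and 2.44 against 1.76 and 1.29 CPM and SNORA47, a guide RNA for pseudouridylation, at 8.02 and 4.77 against 3.33 and 2.34 CPM, Z1flag first.

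The other lower genes were of several kinds. CCND2, a G1 cyclin, on the plus strand at chr12:4273772-4305350, was at 940.4 and 444 CPM in Z1flag and 333 and 346 CPM in Z2flag cells. The Z1flag libraries differed more from each other than Z1flag replicate 2 from the Z2flag libraries, and the log2 fold change of -1.03 (SE 0.36) was -0.38 without Z1flag replicate 1. PRICKLE2, of the planar polarity pathway, was at 43.3 and 32.6 against 19.1 and 25.1 CPM, and the sulfatase gene ARSJ at 19.6 and 11.8 against 5.87 and 9.48 CPM. TGFB1I1, a focal adhesion adaptor, was at 3.02 and 2.10 against 0.713 and 1.27 CPM. The pseudogenes EEF1A1P10 and RPS11P5, copies of an elongation factor and a ribosomal protein gene, were at 1.85 and 1.37 against 0.547 and 0.703 CPM and 1.31 and 1.72 against 0.760 and 0.591 CPM, and reads from their parent genes may be counted there. ENSG00000281383, a long noncoding RNA of chromosome 21, was at 2.16 and 2.44 CPM in Z1flag and 0.428 and 0.591 CPM in Z2flag cells, and in postconfluent cells, where the lines overlapped, at 2.72 and 6.33 CPM in Z1flag and 3.47 and 0.481 CPM in Z2flag cells. It passed without the count filter, with an adjusted p of 0.0477 by edgeR. ENSG00000225203 was at 3.51 and 1.18 against 0.570 and 0.816 CPM. For each lower gene the rule makes a Z1flag library the highest, and it was replicate 1 for 10 of the 12. Without that library the median difference went from -1.09 to -0.70. The postconfluent sign was the same for 6 of the 12.

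**Figure D4:**
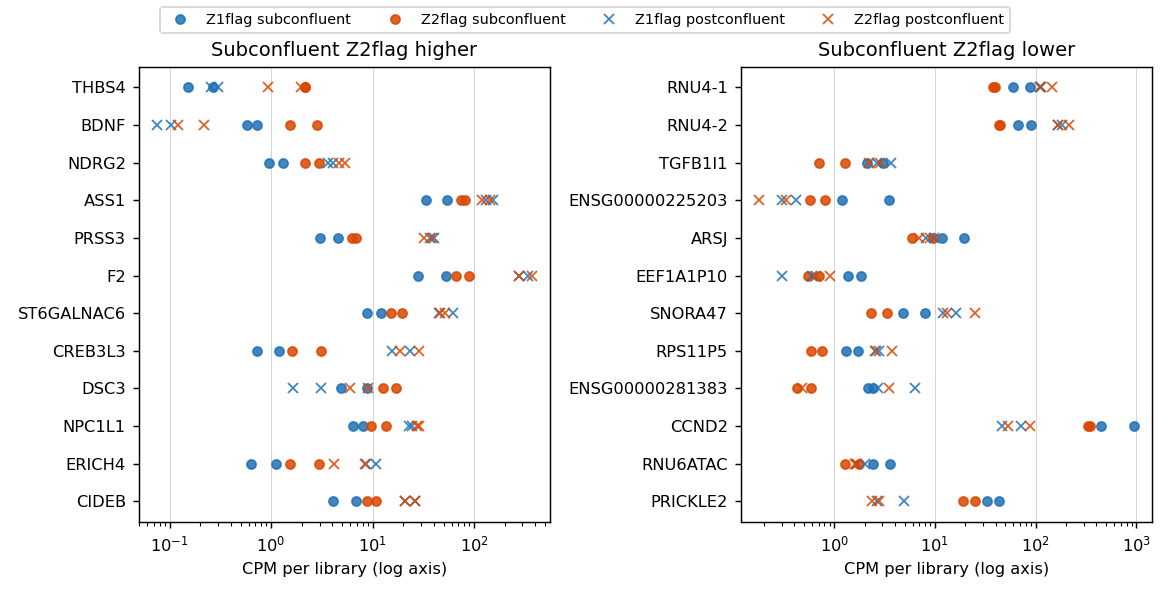
CPM on a log axis of the 12 genes with the smallest p among those higher (left) and lower (right) in subconfluent Z2flag cells, with 1 symbol per library, circles for subconfluent and crosses for postconfluent cells, blue for Z1flag and orange for Z2flag. The circles of each gene do not overlap between lines because the rule required it, and the crosses lie in the same order without overlap for THBS4, BDNF, NDRG2, DSC3 and NPC1L1 and for none of the lower genes.

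Among the gene lists, the widest differences were in genes of the differentiated state, and their size varied with the library left out. For 30 genes of secreted liver-type proteins, all tested, none passed, 17 had both Z2flag libraries higher (background 26.3%) and 0 had both lower, with a median log2 difference of 0.87. The median deviation from the mean of the 4 libraries was -1.08 in Z1flag replicate 1, 0.16 in Z1flag replicate 2, 0.66 in Z2flag replicate 1 and 0.26 in Z2flag replicate 2. Z1flag replicate 1 was the lowest for 27 of the 30. The median difference was 0.28 without it and 1.67 without Z1flag replicate 2, alternatives chosen after seeing the data. In postconfluent cells the median was -0.37. APOA1, the main protein of high-density lipoprotein, was at 143 and 382 CPM in Z1flag and 584 and 431 CPM in Z2flag cells, a difference of 0.95 (SE 0.41), 0.42 without Z1flag replicate 1 and 1.84 without Z1flag replicate 2. F2, prothrombin, was at 27.9 and 53.5 CPM in Z1flag and 89.1 and 66.4 CPM in Z2flag cells, a difference of 0.93 (SE 0.31), 0.55 without Z1flag replicate 1 and 1.49 without Z1flag replicate 2. In each of these genes both Z1flag libraries lay below both Z2flag ones, with Z1flag replicate 2 closer to them than to its own replicate for APOA1. SERPINC1, antithrombin, was at 0.451 and 0.687 against 1.83 and 1.01 CPM, and HP, haptoglobin, at 0.180 and 0.763 against 1.62 and 1.10 CPM.

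The promoter of F2 is shown because these genes varied together among the libraries and many liver genes carry sites for HNF1 factors, and capitals mark the match to GTTAAT, a core of the HNF1 recognition sequence, read on the minus strand. It covers the 250 bases upstream of the RefSeq start on the plus strand of GRCh38.p14, chr11:46718963-46719212. The F2 window matches this short core only. A longer form of the HNF1 sequence was in 0.296% of 35116 upstream windows of this kind. Among the 23 listed liver-type genes with an entry it was in the windows of 2, AFP and FGA, and not in that of F2.
F2: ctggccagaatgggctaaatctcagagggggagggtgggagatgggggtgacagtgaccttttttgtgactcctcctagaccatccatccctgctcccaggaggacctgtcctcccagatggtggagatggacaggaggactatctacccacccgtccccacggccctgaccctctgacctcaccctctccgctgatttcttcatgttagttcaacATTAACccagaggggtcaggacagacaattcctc
GTTAAT on either strand was in 6.23% of 35116 such upstream windows and in those of 7 of the 23 listed genes with an entry: AFP, ALB, APOH, F2, FGA, FGB and SERPINA1. A match of letters does not show that a factor binds.

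Enterocyte genes followed the same libraries. Of 37 listed, 33 were tested, 14 had both Z2flag libraries higher and 4 both lower (background 26.3% and 17.2%), and the median difference was 0.66. It was 0.24 without Z1flag replicate 1, 1.06 without Z1flag replicate 2 and 0.35 without Z2flag replicate 1. The median deviations were -0.55 in Z1flag replicate 1 and 0.52 in Z2flag replicate 1. Of the 33, 9 had an interval within 2-fold and 11 were below 1 CPM in all 4 libraries. MYO1A, a motor of the microvillus, was at 3.83 and 4.27 CPM in Z1flag and 8.96 and 6.87 CPM in Z2flag cells, a difference of 0.96 (SE 0.37), and 0.90 without Z1flag replicate 1. MEP1A, a brush border protease, was at 0.315 and 0.763 against 1.52 and 0.900 CPM, SLC51B, a subunit of the bile acid exporter, at 3.79 and 6.83 against 11.4 and 8.13 CPM, FABP1, a fatty acid binding protein, at 6.17 and 16.5 against 28.4 and 17.8 CPM and APOB at 823 and 1380.0 against 1336 and 1394 CPM, Z1flag first. Goblet cell genes, 9 tested of 15, had a median of 0.74, which was 0.10 without Z1flag replicate 1, 1.51 without Z1flag replicate 2 and 0.22 without Z2flag replicate 1. Of the 9 goblet cell genes, 2 had an interval within 2-fold, and their summed level was 265 and 296 against 308 and 331 CPM. In postconfluent cells the medians were -0.14 for the enterocyte and -0.21 for the goblet cell genes. TFF3, a secreted trefoil peptide, was at 4.19 and 18.2 against 23.5 and 21.2 CPM and AGR2, a chaperone of mucin folding, at 247 and 263 against 267 and 294 CPM.

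Contractile genes and targets of the coactivator YAP leaned the other way. Of 26 listed, 24 were tested, 12 had both Z2flag libraries lower (background 17.2%) and 2 both higher, with a median of -0.38. The deviations were 0.36 and 0.01 in the Z1flag and -0.34 and -0.02 in the Z2flag libraries, so replicate 1 of each line gave the extremes. Without Z1flag replicate 1 the median was -0.20 and without Z2flag replicate 1 it was -0.25. The interval lay within 2-fold for 9 of the 24. In postconfluent cells the median of these genes was 0.32. TAGLN, transgelin, was at 1492 and 1113 CPM in Z1flag and 540.3 and 1086 CPM in Z2flag cells. Z2flag replicate 2 lies beside Z1flag replicate 2 there, and the difference was -0.68 (SE 0.71). It was -0.44 without Z1flag replicate 1, -0.25 without Z2flag replicate 1 and -1.26 without Z2flag replicate 2. ANKRD1 was at 572 and 320.1 against 206 and 308 CPM, MYL9, a myosin light chain, at 209 and 161 against 106 and 156 CPM, the actin crosslinker FLNA at 1561 and 1184 against 893 and 1187 CPM and CRIM1 at 934 and 672 against 504 and 614 CPM, Z1flag first. Immediate-early genes, 22 tested of 24, had a median of -0.28, -0.03 without Z1flag replicate 1 and -0.50 without Z1flag replicate 2. Their postconfluent median was 0.43. FOS was at 18.2 and 3.51 against 4.99 and 3.97 CPM and KLF6 at 107 and 53.1 against 48.3 and 50.7 CPM, in each case with Z1flag replicate 1 far above the rest.

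Ribosomal protein genes had small differences that ran the same way. Of 87 listed, 82 were tested, 68 had both Z2flag libraries higher and 0 both lower (background 26.3% and 17.2%), and none passed. The interval lay within 2-fold for 81 of the 82, against 57.9% of all genes and 93.0% of those at 100 CPM or more. Their median difference was 0.17, 0.12 without Z1flag replicate 1, 0.26 without Z1flag replicate 2 and 0.08 with the no-feature share as a covariate. The median deviations were -0.15 and -0.02 in Z1flag and 0.10 and 0.07 in Z2flag cells. Ribosomal protein genes are short, and the 2922 shortest protein-coding genes had a median difference of 0.12 between the lines. The part of length in this result was not tested. RPL36 was at 221 and 269.7 against 308 and 322 CPM and RPL11 at 468 and 549.9 against 635 and 639.8 CPM, Z1flag first. Replication-dependent histone genes, 53 tested of 65, had a median of -0.18, which was 0.02 without Z1flag replicate 1, -0.34 without Z1flag replicate 2, -0.11 without Z2flag replicate 1 and -0.55 with the covariate. Z1flag replicate 1 was the highest for 50 of the 53. In postconfluent cells the medians were 0.11 for the ribosomal protein and 0.09 for the histone genes.

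**Figure D5:**
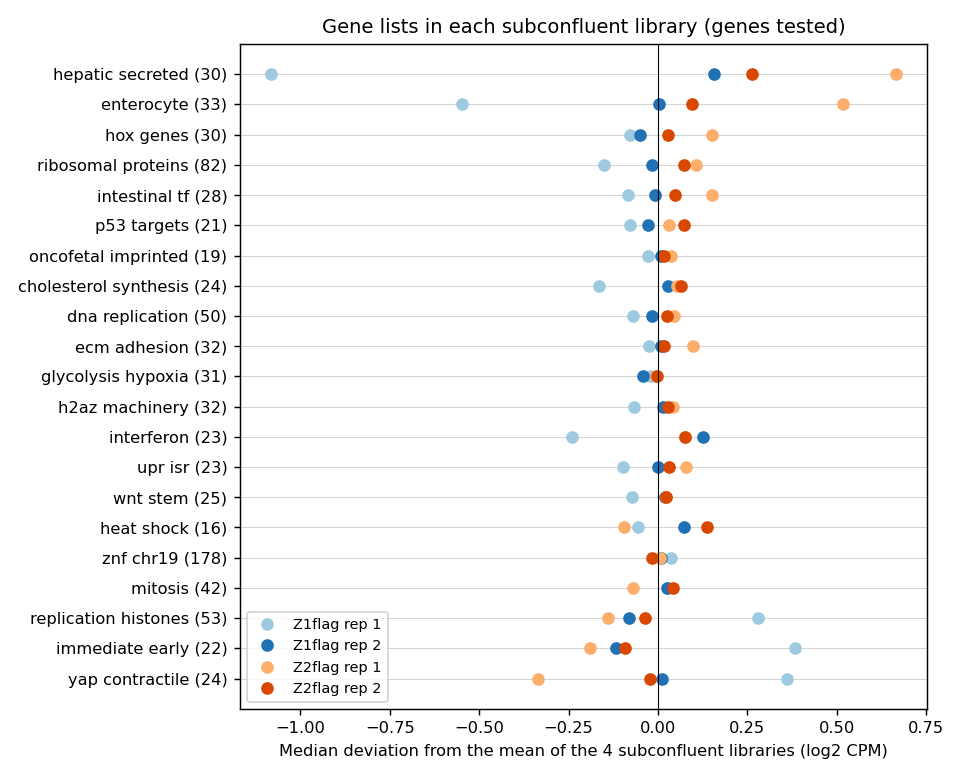
Median deviation of each gene list from the mean of the 4 subconfluent libraries in log2 CPM, 1 point per library, for lists with at least 15 tested genes (number in brackets). Z1flag replicate 1 lies farthest from 0 for the liver-type, enterocyte, histone, immediate-early and YAP lists, and Z1flag replicate 2 lies near Z2flag replicate 2.

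The remaining lists are given by their medians. For 24 genes of cholesterol synthesis the median difference was 0.10, and for 28 intestinal transcription factors tested it was 0.13. Of the 24, 21 had an interval within 2-fold, against 57.9% of all genes and 92.8% of those from 20 to 100 CPM. Medians were 0.08 for 32 genes of matrix and adhesion, 0.08 for 31 of glycolysis and hypoxia, 0.13 for 21 targets of p53 and 0.10 for 19 oncofetal or imprinted genes. They were 0.02 for 23 genes of the unfolded protein response, -0.01 for 16 heat shock genes and 0.04 for 23 interferon genes. These medians are small, and of them only those of the intestinal transcription factors, the p53 targets and the oncofetal genes kept their sign in every alternative run. HOX genes, which set position along the body axis, had a median of 0.21 over 30 tested, 0.13 without Z1flag replicate 1, 0.13 without Z2flag replicate 1, 0.32 without Z2flag replicate 2 and 0.11 with the no-feature share as a covariate. For 178 zinc finger genes of chromosome 19 it was -0.03, and 0.09 with the covariate. For 8 clustered protocadherins of 53 it was -0.21, -0.05 without Z1flag replicate 1 and 0.12 with the covariate. Of 99 cancer-testis genes 2 were tested, with a median of 0.01.

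The summed level of each marker list of other cell types was lowest in Z1flag replicate 1, while the medians of the lists moved unequally without it. Paneth cell genes, 6 tested of 10, summed to 32.6 and 88.5 against 95.4 and 94.0 CPM, with a median of 0.64, 0.09 without that library and 1.32 without Z1flag replicate 2. Gastric genes, 5 tested of 12, summed to 7.30 and 20.5 against 19.4 and 20.7 CPM, with medians of 0.49 and 0.30, and of 2.54 without Z1flag replicate 2, 1.16 with limma voom and 0.93 with the replicate number as a block. Leukocyte and endothelial genes, 7 tested of 13, summed to 14.2 and 28.2 against 32.6 and 26.5 CPM (0.27 and 0.04), and enteroendocrine genes, 6 of 18, to 5.50 and 7.90 against 9.41 and 7.71 CPM (0.26 and -0.10). No gene of these lists passed. Without that library the median of the tuft cell genes, 5 tested of 11, went from 0.34 to 0.46, and that of the colonocyte genes, 11 of 16, was 0.23 against 0.23. The fibroblast genes had medians of 0.15 and 0.03, and the 2 neural genes tested of -0.05 and -0.43. Each marker list here rests on few genes, and leaving out Z1flag replicate 2 gave 0.97 for the leukocyte and endothelial, 0.53 for the colonocyte, 0.52 for the fibroblast and 0.57 for the neural genes. The part of these markers in the line difference was not tested.

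No chromosome differed widely between the lines. Medians over 23 chromosomes ran from -0.06 for chromosome 13 to 0.15 for chromosome 22 on the log2 scale. Over 240 windows of 10 Mb with at least 15 protein-coding genes, medians ran from -0.23 to 0.19 in subconfluent and from -0.14 to 0.26 in postconfluent cells.

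The difference between the lines was also set against that in postconfluent cells. There, reads on no annotated feature were 31.4% in Z1flag replicate 1, against 20.6% to 23.4% in the other libraries. It differed from Z1flag replicate 2 by a median of 0.42 in log2 CPM. Without replicate 2 it is the only library of its group. The test of a change of the line difference with growth state called 0 of 18240 genes by edgeR (smallest adjusted p = 0.799), with 902 at an unadjusted p below 0.05. DESeq2 and limma voom called 0 as well, with 799 and 902. This count depends on 1 library: without postconfluent Z1flag replicate 2 it was 190. The comparison of lines in postconfluent cells alone called 0 by edgeR, DESeq2 and limma voom, with 1308, 1208 and 1192 genes at an unadjusted p below 0.05. It depends on the same library: without postconfluent Z1flag replicate 2, edgeR called 2252 genes between the lines in postconfluent cells, and 0 in subconfluent cells.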

How the data were processed

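The values are raw counts per gene, deposited by the authors, from strand-specific, rRNA-depleted, paired-end libraries per the labels' protocols. The tools STAR 2.5.2b, HTSeq and SAMtools and the build hg38 are listed in the submitters' processing notes. Annotation, HTSeq mode and strand setting were not found in these sources, so overlapping, antisense and near-identical genes are uncertain. Rows of unassigned reads were left out of tests. Of 58302 gene IDs, 58039 are in GENCODE v29, used for positions and exon lengths, and 57532 have a symbol. Promoters are from RefSeq (GRCh38.p14).

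The test was edgeR 4.0.16's robust quasi-likelihood F test with TMM scaling (R 4.3.3), in 1 fit of 4 group means over all 8 libraries, with 4 residual degrees of freedom. The filterByExpr filter (minimum count 10, minimum total 15) left 18240 genes, and p-values were adjusted by Benjamini-Hochberg with a threshold of 0.05. The SE is the log2 fold change divided by the square root of F. CPM is TMM-scaled, with a prior count of 2 on the log2 scale. P-values measure the spread between these samples, which may be technical. The test was also run on simulated counts, drawn with 1 fitted spread per gene for all libraries. That run cannot show how the test behaves where the spread differs between libraries or growth states.

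Named were H2AZ1 and H2AZ2, the 12 genes per direction with the smallest p (mean of at least 1 CPM, no overlap), members of the 32 lists with the smallest p or the highest level, up to 3 each, and the 15 highest protein-coding genes; 88 of the genes so named are described. The comparison, the lists and their members were chosen with earlier results of these data known. Alternatives, those for list medians added after seeing the data, were other scalings, DESeq2 1.42.0, limma 3.58.1 voom, other filters, a replicate block, the 4 subconfluent libraries alone, removal of small structural RNA, the no-feature share as a covariate and leaving out each library.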

Additional observations from a re-analysis of the deposited data

How the results depend on the processing

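The count of 0 genes for the lines in subconfluent cells was also 0 under every alternative run but 1. Without a count filter 2 of 35174 genes passed, 1 higher (THBS4, edgeR adjusted p = 0.000598) and 1 lower (ENSG00000281383, adjusted p = 0.0477), and 41 passed for the change of the line difference with growth state and 221 for the lines in postconfluent cells. The change with growth state ranged from 0 to 190 genes when each library was left out, with 190 without postconfluent Z1flag replicate 2, where 2252 passed for the lines in postconfluent cells. A fit of the 4 subconfluent libraries alone called 0, with 1042 genes (6.02%) at an unadjusted p below 0.05 and a smallest adjusted p of 0.56, and in it 73.2% of genes had an interval within 2-fold. Of non-overlapping genes, 60.5% were higher in Z2flag cells with TMM, 56.4% with upper-quartile and 52.1% with RLE scaling. With 1 library of a line left out, the lone library is assumed to vary like the other groups. Without postconfluent Z1flag replicate 2 the lone library was Z1flag replicate 1, with a no-feature share of 31.4%. The replicate block called 0, with 214 genes at an unadjusted p below 0.05. Deviations of same-numbered subconfluent libraries correlated with r = -0.06. With 2 libraries per line this does not decide whether the numbers mark experiments shared by the lines. The closest pair in each growth state was Z1flag replicate 2 with Z2flag replicate 2. Of 88 genes named, 57 kept their sign in all settings in which they were tested; 78 of 1657 alternative values changed sign, and none of those passed the test. Adding the no-feature share as a covariate changed the sign of CCNB1 (-0.34), CD14 (-0.21), GAPDH (-0.21), H2AC12 (-0.45), H2AX (-0.41), H2AZ1 (-0.13), H2AZ2 (-0.11), MCM6 (-0.19), PCNA (-0.17), PDGFRA (-0.37), PROM1 (0.13), TK1 (-0.37). H2AC12 was at -0.0255 (RLE scaling), -0.0090 (upper-quartile scaling), -0.0255 (DESeq2), -0.0013 (no filter), -0.0162 (replicate block), -0.0246 (only the 4 subconfluent libraries), -0.0172 (only the 4 subconfluent libraries with a replicate block). H2AX was at -0.0299 (RLE scaling), -0.0133 (upper-quartile scaling), -0.0299 (DESeq2), -0.0061 (no filter), -0.0054 (replicate block), -0.0286 (only the 4 subconfluent libraries), -0.0293 (only the 4 subconfluent libraries with a replicate block), -0.0028 (small structural RNA removed). MCM6 was at -0.0175 (RLE scaling), -0.0001 (upper-quartile scaling), -0.0175 (DESeq2), -0.0159 (only the 4 subconfluent libraries), -0.0156 (only the 4 subconfluent libraries with a replicate block). When each library was left out in turn, these sign-changing values ranged over -0.0080 to 0.75 for APOB, -0.25 to 0.0885 for CCND1, -0.30 to 0.97 for CD14, -0.0041 to 0.37 for EPCAM, -1.9986 to 0.36 for FOS, -0.28 to 0.0760 for H1-2, -0.45 to 0.0339 for H1-4, -0.34 to 0.0753 for H1-5, -0.0527 to 0.15 for H2AZ2, -0.18 to 0.0622 for H2BC12, -0.47 to 0.0161 for H3C7, -0.41 to 0.12 for H4C3, -0.31 to 0.0003 for HIST1H3B, -0.60 to 0.23 for MYC, -0.0651 to 0.95 for PCSK1N, -0.23 to 0.52 for PDGFRA, -0.25 to 0.0254 for SLC2A3, -0.14 to 0.24 for FN1, -0.11 to 0.16 for H2AC12, -0.0560 to 0.0157 for MORF4L1, -0.32 to 0.0526 for KRT18, -0.25 to 0.0351 for KRT8, -0.21 to 0.0477 for TOP2A, -0.0403 to 0.0665 for H2AX, -0.11 to 0.0000 for PROM1, -0.0251 to 0.0422 for MCM6, -0.0008 to 0.0951 for CCNB1. Where a cause is not plain from the construction of the alternative, the cause was not tested. Depth, the number of libraries and the fitted spread limit the comparison most below about 5 CPM. Above that level a 2-fold difference could also fail to pass.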
